A study of Mus musculus with 10 samples.

Results

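The 10 genes described here mark the connective tissue cells of muscle. They are Pdgfra, Thy1, Cd34, Dpp4, Fap, Dpt, Mfap5, Pi16, Clec3b and Gsn, chosen by name as markers of fibroblasts and fibro-adipogenic progenitors, out of 18193 genes that had a probe set carrying their symbol alone. All 10 were among the 10704 genes bright enough to be tested.

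Fibro-adipogenic progenitors are mesenchymal cells that lie between muscle fibres. They make the interstitial matrix, support repair by satellite cells, and can turn into fibroblasts or fat cells when muscle is damaged. Pdgfra is the receptor by which they are usually sorted, while Pi16, Dpp4 and Mfap5 are best known from fibroblasts of vessel sheaths and fascia. Myostatin, the product of Mstn, is a secreted TGF-beta family protein that restrains muscle growth through activin receptors and Smad transcription factors.

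Gastrocnemius muscle, a calf muscle, was taken from 10 male mice, 7.5 months old and on a C57BL/6 background. Floxed_Mstn mice (5, called knockout below) carried myostatin genes flanked by Cre recognition sites, and WT_Mstn mice (5, called control) had normal ones. Every animal in both groups carried the CAGG-CreER transgene, a Cre recombinase switched on by tamoxifen, and every animal had 8 tamoxifen injections from 4 months of age, so Cre and tamoxifen do not differ between the groups. The CAGG promoter is active in many cell types, so recombination is not restricted by it to muscle fibres. No probe set carried the name Mstn, so deletion of the gene has no check in these arrays. The labels number the arrays within each group and do not say whether equal numbers mark littermates.

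Values are log2 of the microarray intensity, and each array is 1 mouse. Whole muscle was measured, so fewer cells of a type, less RNA per cell and a larger share of RNA from other cells cannot be told apart. The 10 genes had 22 probe sets, of which 16 reached the mean log2 intensity of 4 that was required over all arrays. The other 6 lay at or below 3.29 on every array. Arrays ran from a floor of 3.57 to 3.77 in linear intensity to a ceiling of 16.01 to 16.07 in log2. A gene is represented by its brightest probe set, and levels of different probe sets are not compared because probes differ in binding. Linear intensities summed over a list weigh its brightest probe sets most. Differences are knockout minus control, with a standard error (SE) and a 95% interval from limma. Intervals are not widened for the number of genes. Adjusted p means limma's p corrected by the Benjamini-Hochberg method across all 21154 probe sets in the fit, with a threshold of 0.05.

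The promoters of these genes are shown because the genes are compared as a set and myostatin acts through Smad factors. RefSeq windows on GRCm38.p6, reaching from 250 bases before to 50 bases after the annotated start, were found for 6 of the 10 genes (Dpt, Cd34, Gsn with 3 windows, Dpp4, Pdgfra and Pi16, 8 windows in all) and not for Thy1, Mfap5, Fap and Clec3b. The windows below are those of the 3 genes with a single window that held a match to a searched motif, 5′ to 3′ on the gene's own strand, with matches in capitals. Capitals mark TATAAA in Dpt, CCAAT in Pi16, and TATAAA and then CATTCC in Dpp4. They lie at chr1:164796413-164796712 (plus strand), chr17:29318632-29318931 (plus strand) and chr2:62412182-62412481 (minus strand).
Dpt: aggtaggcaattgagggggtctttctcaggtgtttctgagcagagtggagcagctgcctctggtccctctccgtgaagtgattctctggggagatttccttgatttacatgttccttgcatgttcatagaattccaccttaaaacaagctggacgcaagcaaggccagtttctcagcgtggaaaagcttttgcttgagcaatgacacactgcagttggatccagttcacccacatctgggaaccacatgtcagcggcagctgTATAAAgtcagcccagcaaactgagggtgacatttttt
Pi16: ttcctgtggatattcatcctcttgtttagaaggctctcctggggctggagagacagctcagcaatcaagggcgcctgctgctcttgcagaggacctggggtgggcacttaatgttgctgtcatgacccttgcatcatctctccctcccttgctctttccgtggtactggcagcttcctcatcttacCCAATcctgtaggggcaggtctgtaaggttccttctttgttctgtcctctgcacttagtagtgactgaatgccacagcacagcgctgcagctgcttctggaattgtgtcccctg
Dpp4: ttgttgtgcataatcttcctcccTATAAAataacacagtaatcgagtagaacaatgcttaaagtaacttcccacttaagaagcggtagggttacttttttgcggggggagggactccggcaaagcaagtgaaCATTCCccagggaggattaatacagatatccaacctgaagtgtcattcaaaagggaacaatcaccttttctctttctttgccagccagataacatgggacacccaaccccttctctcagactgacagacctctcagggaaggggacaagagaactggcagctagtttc

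Motifs were searched on both strands. CAGACA, the core of the Smad-binding CAGA box, occurred in 0 of the 8 windows, against 21.0% of all 32851 promoter windows of this length. The AP-1 motif TGANTCA also occurred in 0 of 8, against 7.81%. TATAAA was in 2 of 8 (13.6% of all windows), CCAAT in 3 (37.4%), the GC box GGGCGG in 3 (35.7%) and CATTCC, the core of the TEAD motif, in 1 (14.7%). These shares describe letters in a short window, and 3 of the 8 windows belong to Gsn.

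All 10 genes had a lower mean in knockout muscle, but none passed the threshold. In limma 0 of 10 had an adjusted p under 0.05, where 0.131% of all genes tested did, and 0 of their 16 probe sets did, where 0.0993% of all probe sets did. The differences ran from -0.60 (Mfap5) to -0.16 (Gsn), with a median of -0.41, against -0.0049 for all genes tested. Differences below 0 were found for 51.5% of all genes, and 4.57% had a difference at or below the median of these 10. At an unadjusted p under 0.05, 4 genes had lower values in knockouts (Mfap5, Cd34, Thy1 and Dpt), where 5.02% of all genes did. The knockout and control arrays overlapped for each of the 10 genes, whereas 1.31% of all genes had knockout arrays entirely below the controls. Adjusted p values of the 10 lay between 0.554 and 0.872. These genes were put together with results of the same arrays known, so their common sign has no test here.

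**Figure D1:**
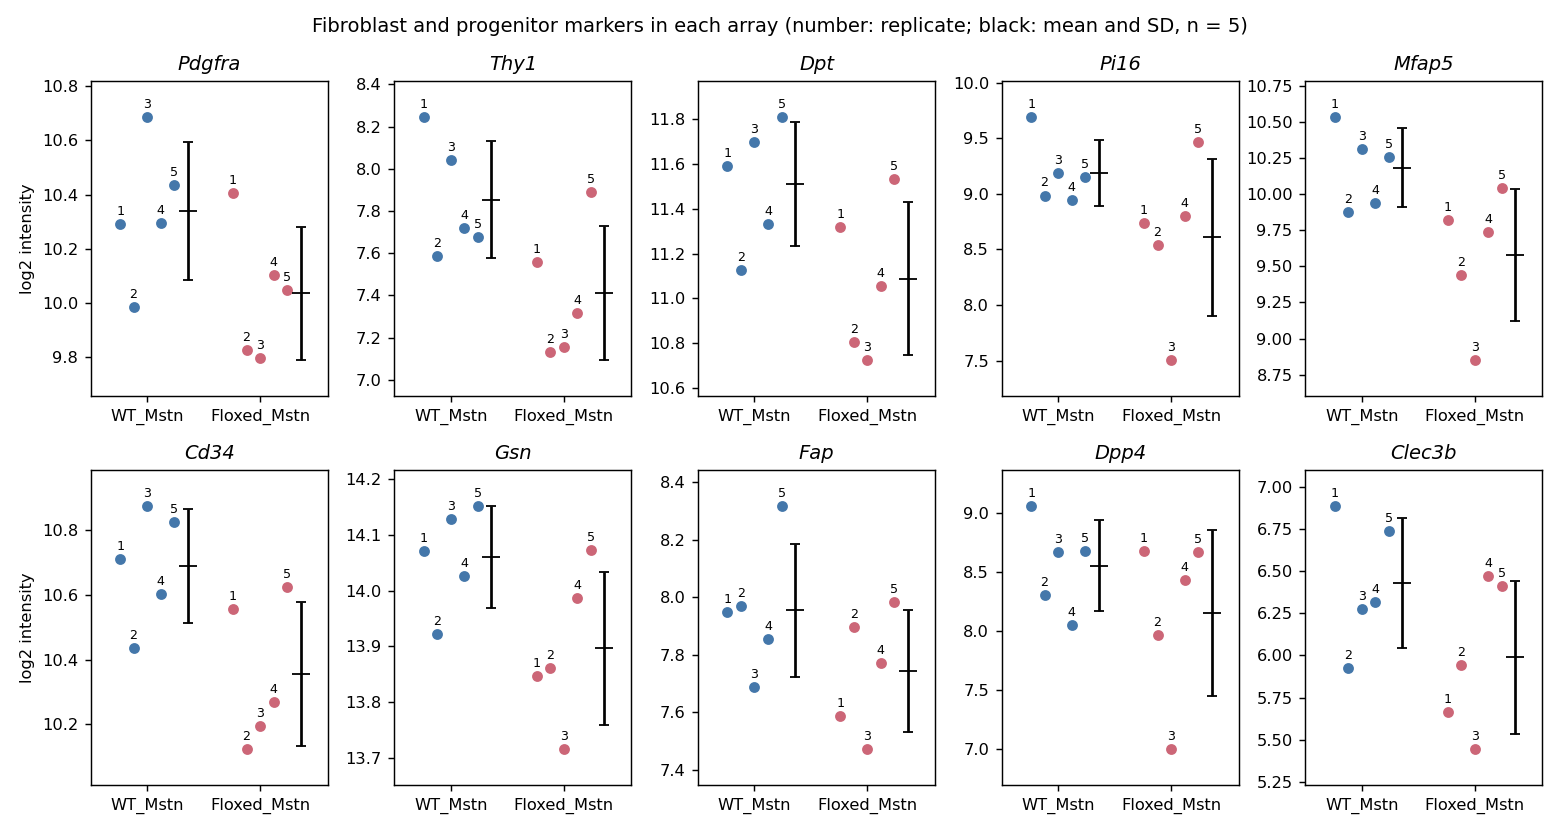
Log2 intensity (vertical axis, scaled to each gene) of the brightest probe set of each of the 10 genes in the 5 WT_Mstn and 5 Floxed_Mstn arrays. Points are arrays with their replicate number, and black marks give the mean and SD. The groups overlap for every gene, and knockout 3 is the lowest knockout array for 8 of the 10.

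Among the surface receptors and glycoproteins, Pdgfra encodes the receptor for platelet-derived growth factors that defines the progenitors. Its log2 intensity in control arrays 1 to 5 was 10.29, 9.99, 10.68, 10.30 and 10.43, and in knockout arrays 1 to 5 it was 10.40, 9.83, 9.80, 10.10 and 10.05. Knockouts 2 and 3 lay below every control, while knockout 1 lay above the control mean. The means were 10.34 ± 0.25 and 10.04 ± 0.25 (SD, n = 5 each), a difference of -0.30 ± 0.15 (SE, 95% interval -0.64 to 0.035, adjusted p = 0.716 in limma). A second, dimmer Pdgfra probe set gave 0.10 (95% interval -0.44 to 0.64), and -0.02 without knockout 5 or without control 2. The mean over all 3 Pdgfra probe sets gave -0.07, and it includes a probe set below the filter, with a mean of 2.19.

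Thy1 encodes a glycoprotein anchored in the membrane of fibroblasts, and also of T cells and neurons. Controls measured 8.24, 7.59, 8.04, 7.72 and 7.68, and knockouts 7.56, 7.13, 7.16, 7.32 and 7.89. Of the knockouts, 4 lay below every control and knockout 5 lay above the control mean. The difference was -0.44 ± 0.18 (SE, 95% interval -0.84 to -0.05, adjusted p = 0.586). None of the 6 measured T cell markers (Cd3e, Cd3d, Cd3g, Cd4, Cd8a, Cd2) reached the intensity filter, and their summed linear intensity was 34.2 to 40.3 in controls and 36.1 to 46.8 in knockouts.

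Cd34 encodes a sialomucin of progenitors and of vessel lining. Control values were 10.71, 10.44, 10.87, 10.60 and 10.83, against 10.56, 10.13, 10.20, 10.27 and 10.62 in knockouts. All 5 knockout arrays lay below the control mean and 3 lay below every control. The difference of -0.34 ± 0.13 (SE, 95% interval -0.62 to -0.06, adjusted p = 0.557) corresponds to a 20.8% lower intensity. Endothelial markers, which mark another source of Cd34, had lower values for 10 of 12 genes with a median of -0.18. None passed (lowest adjusted p = 0.469, Tek, the angiopoietin receptor, at -0.27). Their summed linear intensity ran from 4620 to 5782 in controls and from 4081 to 4887 in knockouts. The part of vessel lining in the Cd34 value was not tested. Podxl, a sialomucin related to Cd34, had -0.36 (adjusted p = 0.424), and Cd164, another sialomucin, had 0.13 (adjusted p = 0.680).

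Dpp4 and Fap encode related serine peptidases of the cell surface that cut after proline. In the GRCm38.p6 gene order they are neighbours on chromosome 2, with 1 protein-coding gene, Gcg, between them. Dpp4 measured 9.06, 8.31, 8.67, 8.06 and 8.68 in controls and 8.68, 7.97, 7.005, 8.44 and 8.67 in knockouts. Knockout 3 stood far below the next array, knockout 2, and 3 of the other 4 knockouts lay within the control range. The difference was -0.40 ± 0.33 (SE, 95% interval -1.13 to 0.33, adjusted p = 0.872), and without knockout 3 it was -0.12. A dimmer Dpp4 probe set gave -0.49 (95% interval -1.45 to 0.47), which was -0.14 without knockout 3 and -0.26 without control 3.

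Fap, which marks activated fibroblasts and progenitors, had control values of 7.95, 7.97, 7.69, 7.85 and 8.32 and knockout values of 7.59, 7.90, 7.47, 7.77 and 7.99. Knockouts 1 and 3 lay below every control. The difference of -0.21 ± 0.14 (SE, 95% interval -0.52 to 0.09, adjusted p = 0.806) became -0.12 without control 5, the highest array. Other prolyl peptidases did not share a sign, as 2 of 5 measured genes had lower values, with a median of 0.03. Of these Prcp had -0.38 (adjusted p = 0.707) and Dpp8 had -0.17 (adjusted p = 0.719).

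Among the secreted matrix proteins, Mfap5 had the most negative difference of the 10 genes. It encodes a glycoprotein of the microfibrils on which elastic fibres are built. Its brightest probe set measured 10.53, 9.87, 10.31, 9.94 and 10.25 in controls and 9.82, 9.44, 8.85, 9.74 and 10.04 in knockouts. Knockouts 1 to 4 lay below every control and knockout 5 lay within the control range. The means were 10.18 ± 0.27 and 9.58 ± 0.46 (SD, n = 5 each), which is a 34.1% lower intensity, a difference of -0.60 ± 0.22 (SE, 95% interval -1.10 to -0.11, adjusted p = 0.554).

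The second Mfap5 probe set gave the same picture at 9.57, 8.82, 9.24, 9.29 and 9.07 in controls and 8.57, 8.34, 8.16, 8.50 and 8.88 in knockouts. Here too 4 knockouts lay below every control, and 4 controls lay above every knockout. Its difference was -0.71 ± 0.16 (SE, 95% interval -1.07 to -0.34), and its adjusted p of 0.255 was the lowest among the probe sets of these genes. Both Mfap5 probe sets are annotated to the same transcript record, so they are repeat readings of 1 gene.

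Other genes of microfibrils and elastic fibres had lower values for 11 of the 11 measured, with a median of -0.37, and none passed. Eln, which encodes elastin, had -0.84 ± 0.22 (SE, adjusted p = 0.331) and Mfap4, a further microfibril protein, had -0.85 ± 0.25 (adjusted p = 0.437).

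Dpt encodes dermatopontin, a small matrix protein that binds decorin and collagen. Control arrays gave 11.59, 11.13, 11.70, 11.33 and 11.81, and knockout arrays 11.32, 10.80, 10.73, 11.06 and 11.53. Knockouts 2, 3 and 4 lay below every control, and controls 1, 3 and 5 above every knockout. The difference was -0.42 ± 0.18 (SE, 95% interval -0.84 to -0.01, adjusted p = 0.636). Dpt and Cd34 lie on chromosome 1, as Mstn does, with 685 and 969 protein-coding genes between them and Mstn in the GRCm38.p6 gene order.

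Pi16, a secreted or membrane-anchored peptidase inhibitor family protein, measured 9.69, 8.98, 9.18, 8.94 and 9.15 in controls and 8.74, 8.54, 7.51, 8.80 and 9.46 in knockouts. Knockouts 1 to 4 lay below every control, and knockout 5 exceeded all controls but control 1. The difference of -0.58 ± 0.31 (SE, 95% interval -1.28 to 0.12, adjusted p = 0.740) shrank to -0.30 without knockout 3.

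Clec3b encodes tetranectin, a plasminogen-binding protein of the C-type lectin family. Its values were 6.89, 5.93, 6.28, 6.32 and 6.74 in controls and 5.66, 5.94, 5.45, 6.47 and 6.41 in knockouts. Knockouts 1 and 3 lay below every control, and the other 3 within the control range. The difference was -0.44 ± 0.24 (SE, 95% interval -0.99 to 0.10, adjusted p = 0.750).

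Gsn encodes gelsolin, which severs and caps actin filaments and also circulates in plasma. It is made by many cells besides fibroblasts. The brightest probe set gave 14.07, 13.92, 14.13, 14.03 and 14.15 in controls and 13.85, 13.86, 13.72, 13.99 and 14.07 in knockouts. The difference, -0.16 ± 0.08 (SE, 95% interval -0.35 to 0.02, adjusted p = 0.722), was the smallest of the 10. Of the 10 genes Gsn lay nearest the ceiling of the arrays, and whether that compressed its difference was not tested. The other 3 bright Gsn probe sets gave -0.26, -0.12 and -0.18, and the first of these was -0.15 without knockout 3. The brightest and 2 of the others are of a design (suffix _x_at) whose probes can also bind other transcripts. Relatives of gelsolin had lower values for 4 of 5 measured genes with a median of -0.11. Of these Avil, advillin, had -0.61 (adjusted p = 0.698) and Svil, supervillin, had -0.11 (adjusted p = 0.738).

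**Figure D2:**
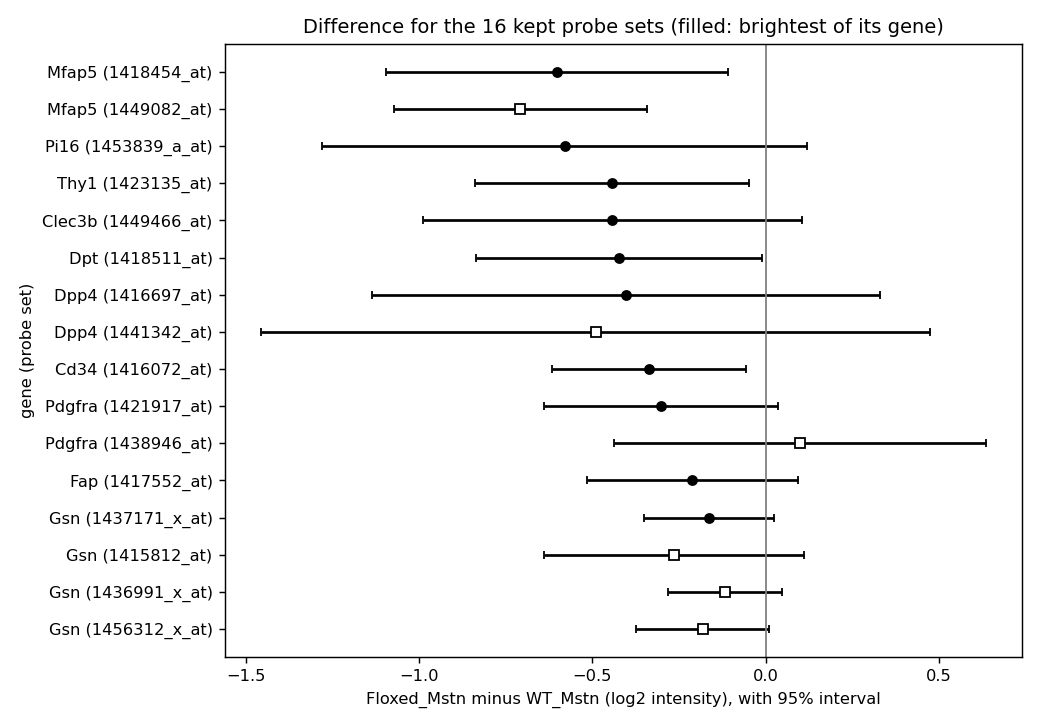
Knockout minus control difference in log2 intensity (horizontal axis) with its 95% interval for the 16 probe sets kept by the filter (vertical axis). Filled circles are the brightest probe set of a gene and open squares the others. All differences but that of the dimmer Pdgfra probe set (0.10) lie below 0, and none passed the threshold.

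The spread between mice was wide for these genes and shared by them. The SD within groups had a median of 0.30 over the 10 genes, from 0.12 for Gsn to 0.57 for Dpp4, against 0.22 over all genes tested. Knockout 3 lay below every control array for all 10 genes, knockout 2 for 8, knockout 1 for 6 and knockout 4 for 5. Knockout 5 lay below every control for 0 of the 10 and was the highest knockout for 7. Among controls, array 1 was the highest for 5 genes and array 2 the lowest for 7.

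As a mean over the 10 genes, control arrays 1 to 5 stood at 9.90, 9.41, 9.76, 9.51 and 9.80 and knockout arrays 1 to 5 at 9.42, 9.15, 8.79, 9.40 and 9.67. Knockouts 2, 3 and 4 therefore lay below all controls, and knockouts 1 and 5 within their range. The group means were 9.68 ± 0.21 and 9.29 ± 0.33 (SD, n = 5 each). Each gene's deviations from its group mean over the 10 arrays followed the average of the other 9 genes to a different degree. Described by Pearson's r, this was 0.960 for Mfap5 and 0.914 for Dpt, and 0.562 for Pdgfra and 0.356 for Fap. These arrays share processing and hybridisation effects, so r is a description only.

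**Figure D3:**
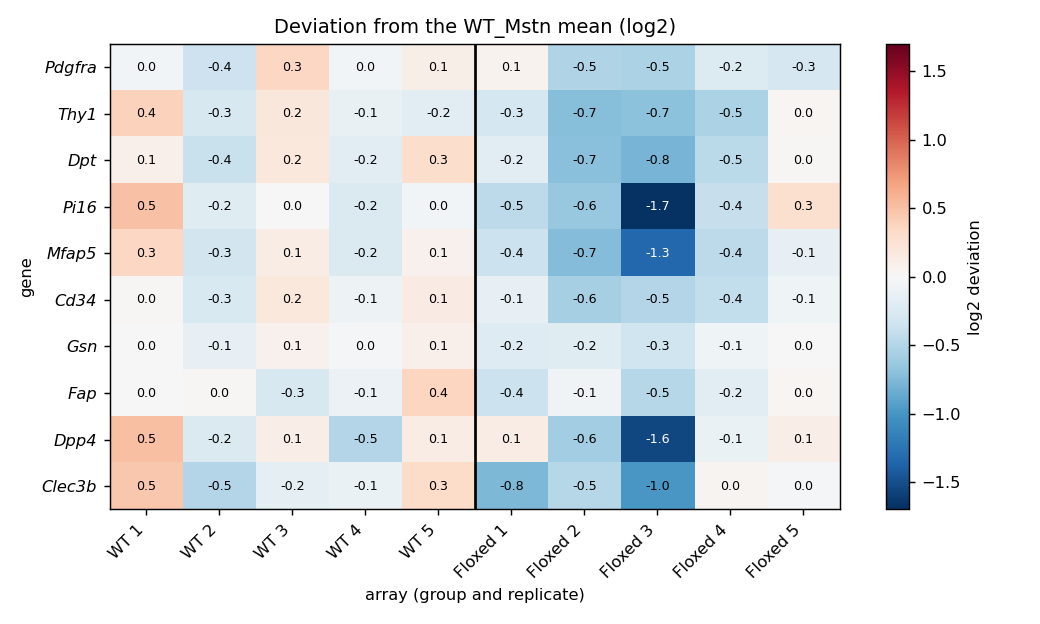
Deviation of each array (columns) from the mean of the 5 control arrays, in log2 units (colour and printed value), for the 10 genes (rows). Knockout 3 is below every control for all 10 genes, and knockout 5 lies near the control mean.

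Technical measures moved with some of these arrays. Spiked-in bacterial RNA, a control for hybridisation read by 7 probe sets, was highest on knockout 3 (13.46), knockout 1 (13.36) and control 3 (13.34) and lowest on knockout 5 (12.84), with group means of 13.12 ± 0.14 in controls and 13.15 ± 0.25 in knockouts. With this spike-in signal as a covariate the 10 differences ran from -0.57 (Mfap5) to -0.15 (Gsn), all below 0. Without the 3 arrays of highest spike-in signal the median difference was -0.26, all 10 genes still had lower values and none passed. In that setting Pi16 had -0.26, Clec3b -0.19, Dpp4 -0.17, Fap -0.14 and Gsn -0.07. A measure of RNA integrity, the 3′ minus 5′ signal of Gapdh, averaged 0.49 ± 0.03 over control arrays and 0.45 ± 0.03 over knockout arrays (mean ± SD, n = 5 each; two-sided exact permutation p = 0.0317, 0.0635 adjusted over 2 measures). For beta-actin it was 1.47 ± 0.06 and 1.40 ± 0.05 (exact permutation p = 0.0873, adjusted 0.0873, where 0.00794 is the smallest p possible). The part of RNA integrity in the differences was not tested.

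Further fibroblast and progenitor genes were taken from a separate list of 32. Of 30 measured, 24 had lower and 6 higher values, with a median of -0.31, and 0 passed in limma (8 at unadjusted p under 0.05, all lower). Mfap4, which also belongs to the microfibril genes above, and Lrp1, a large endocytic receptor (-0.41 ± 0.13 SE, adjusted p = 0.469), had the lowest p. Their mean per array also placed knockout 3 lowest (8.09) and knockout 5 highest (8.94) among knockouts, with controls between 8.73 and 9.06. Of the 6 other PDGF ligands and receptors measured, 4 had lower and 2 higher values. Pdgfrl, a PDGF receptor-like protein, had -0.64 ± 0.17 (SE, adjusted p = 0.369), while Pdgfa, a ligand of Pdgfra, had 0.19 ± 0.08 (adjusted p = 0.642).

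Markers of other cells in the same muscle gave differences of similar size in several lists, and none of their genes passed. Macrophage markers had lower values for 13 of 13 genes with a median of -0.37, and their mean per array was lowest on knockout 3 (7.32), where controls ranged from 8.11 to 8.87. Csf1r, the receptor for the macrophage growth factor, had -0.37 (adjusted p = 0.675) and Fcer1g, an Fc receptor chain, -0.46 (adjusted p = 0.698). Their summed linear intensity was 11259 to 17172 in controls and 7708 to 14820 in knockouts.

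Tendon markers had lower values for 9 of 9 genes with a median of -0.90, led by p by Thbs4, a thrombospondin (-0.81, adjusted p = 0.197), and Fmod, fibromodulin (-0.50, adjusted p = 0.469). The tendon sum was 29385 to 36188 in controls and 15491 to 30914 in knockouts, and its mean per array was lowest on knockout 2 (7.58) rather than knockout 3 (7.76).

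Smooth muscle and pericyte markers had lower values for 7 of 8 genes (median -0.29), with -0.49 for Myh11, smooth muscle myosin (adjusted p = 0.417), and a summed intensity of 13909 to 15726 in controls and 12603 to 14067 in knockouts. Schwann cell markers were lower in 5 of 5 (median -0.38), with -0.33 for Cnp, a myelin enzyme (adjusted p = 0.484), and sums of 7115 to 10974 and 6097 to 9695. Satellite cell markers were lower in 5 of 6 (median -0.25), with -0.31 for Pax7, their defining factor (adjusted p = 0.690), and sums of 4450 to 6169 and 3885 to 5156. Cnn1 of smooth muscle, Mag of Schwann cells, and Calcr and Fgfr4 of satellite cells did not reach the filter.

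Muscle fibre genes had higher values for 9 of 10 with a median of 0.03, and adipocyte markers higher values for 3 of 5 with a median of 0.10, with Lep below the filter. The mean of the adipocyte markers per array was also lowest on knockout 3 (8.68), where controls ran from 9.27 to 9.84. Adipocyte sums were 18268 to 21707 in controls and 17171 to 21607 in knockouts, and Fabp4, a fatty acid carrier, had -0.09 (adjusted p = 0.905). Fibre sums were 368002 to 391227 in controls and 373074 to 391917 in knockouts. Mylpf, a fast fibre myosin light chain, had 0.06 (adjusted p = 0.894), and these genes lie close to the ceiling of the arrays, where differences can be compressed. No difference between the fibroblast genes and any of these lists was tested, and the part of these cell types in the values of the 10 genes was not tested.

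**Figure D4:**
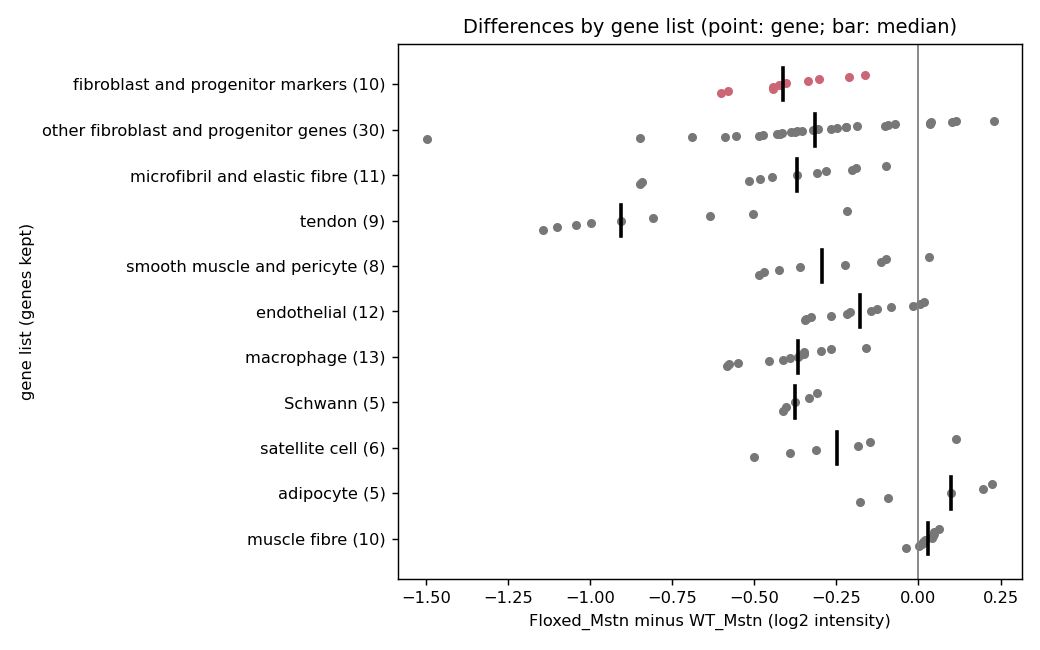
Knockout minus control difference in log2 intensity (horizontal axis) of the genes of 11 lists (vertical axis, with the number of genes measured). Points are genes and black bars medians, and the 10 fibroblast and progenitor markers are in red with a median of -0.41, between the tendon median of -0.90 and the muscle fibre median of 0.03.

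**Figure D5:**
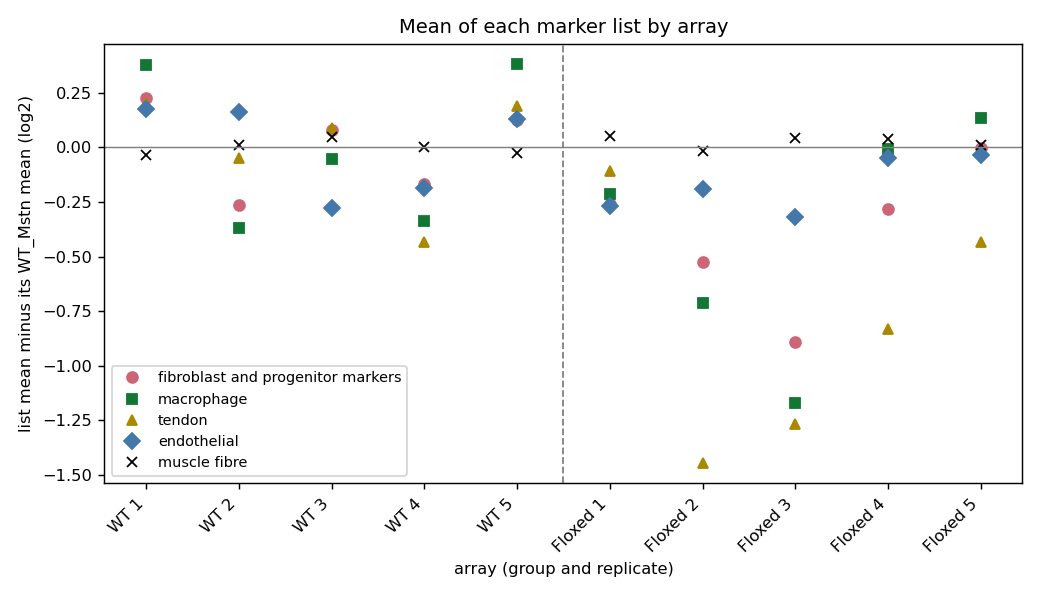
Mean log2 intensity of 5 marker lists on each array, as a deviation from the list's mean in control arrays (vertical axis), for the 10 arrays (horizontal axis). Fibroblast and macrophage markers are both lowest on knockout 3, tendon markers on knockout 2, and muscle fibre markers stay near 0.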

How the data were processed

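RNA from the gastrocnemius of each mouse was extracted with Trizol, labelled with biotin through NuGEN kits and hybridised to 1 array per mouse, per the labels' protocols. The authors deposited a linear intensity for each of 45101 probe sets, made with GCRMA per the submitters' processing notes. GCRMA corrects background, normalizes between arrays and summarises probes, and it holds dim probe sets near a floor. Its version and settings are not stated in the labels. Log2 was taken here with no further normalization.

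Gene symbols came from the platform's annotation (34958 with 1 symbol, 932 with several, 9211 not listed), and all 10 gene identifiers matched the GRCm38.p6 table under the same symbol. Probe sets with a mean log2 of 4 or more were kept and 64 array controls left out. The 21154 remaining were fitted with limma 3.58.1 in R 4.3.3 (lmFit, eBayes, two-sided). P-values set each difference against the spread between these mice, which limma moderates across probe sets, and 5 arrays per group limit the precision. On data simulated from the 21154 probe sets, log2 changes of 0.5 and 1 were called in 26.4% and 65.2% of cases. The simulated noise was independent between probe sets, and changes of log2 2 and 3 were planted along with the smaller ones. The fibroblast genes shared their spread between mice, so these shares do not give the power for them.

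The genes, the lists of other genes and the alternatives were chosen with earlier results of these arrays known. From each other list, differences are given for at most the 2 genes of lowest p, and also for Gdf10. Other genes of these lists, such as those below the filter, are named without a difference. Figures were drawn with matplotlib 3.10.9. Array pairs correlated between 0.944 and 0.991.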

Additional observations from a re-analysis of the deposited data

Results flagged for a closer look

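Of 40 groups of 5 arrays tested for a far-off array (the 16 probe sets, the mean of the 10 genes, the hybridisation controls and the RNA integrity measures), none held one, where chance gives about 1 in 20.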

How the results depend on the processing

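The alternatives of the RNA integrity measures were chosen after seeing the data. For the 10 fibroblast genes, 0 passed the threshold in limma under any of 21 alternatives (10 with an array left out and 11 others). The lowest adjusted p was 0.233 (Cd34, array weights). All 10 also had lower values under each. Among the 11 others, using no filter, a stricter filter or a floor for dim values cannot change these differences. Neither can blocking on replicate number or a variance trend with robust prior, which alter only the standard errors and p. The unchanged sign under those settings is therefore no check. The median difference of the 10 genes ran from -0.53 to -0.30 with an array left out and from -0.41 to -0.26 otherwise. The mean over all probe sets of a gene gave -0.07 for Pdgfra, -0.36 for Pi16 and -0.20 for Dpp4. These means include the probe sets below the filter, which lay at or below 3.29 on every array. The dimmer Pdgfra probe set ran from -0.022 to 0.27 with an array left out, reversing without control 2 (-0.022) and without knockout 5 (-0.015), and the dimmer Dpp4 probe set reversed to 0.067 without the 3 arrays of highest hybridisation controls (the causes were not tested). Over all probe sets the 21 calls became 11 with no filter, 36 after quantile normalization, 58 with a variance trend and robust prior, 67 with array weights, 99 with the hybridisation controls as a covariate and 5 without the 3 arrays, and 1 to 17 with an array left out. Blocking on replicate number left 1 probe set past the threshold and none of the 10 genes. Correlations between the deviations of arrays with equal numbers were -0.51, 0.13, 0.62, -0.20 and 0.19. They were not compared with those of arrays with unequal numbers, so whether the numbers pair the mice was not tested. The Gapdh measure ran from -0.050 to -0.031 with an array left out (adjusted exact permutation p 0.0159 to 0.159, past 0.05 without knockout 3), and that of beta-actin from -0.095 to -0.052 (0.0317 to 0.167, past 0.05 without control 2).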

Other observations

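Genes of the fates open to fibro-adipogenic progenitors were examined as a further list. Of 8 measured, 7 had lower values in knockouts, with a median of -0.21, and none passed in limma. Postn, periostin of activated fibroblasts, was at 7.77 in controls and 6.90 in knockouts (-0.87 ± 0.21 SE, adjusted p = 0.280), with knockout arrays entirely below the controls. Acta2, the actin of myofibroblasts and smooth muscle, had -0.43 ± 0.13 (SE, adjusted p = 0.465).

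Other genes were ranked by how closely their deviations from the group means over the 10 arrays followed the average of the fibroblast genes. The 5 ranked highest began with Tgfbi, a TGF-beta-induced matrix protein (Pearson's r of 0.986), H2-Aa, a class II antigen-presenting chain (0.969), and Cfp, the complement protein properdin (0.965). Fn1, fibronectin (0.964), and Ccl6, a chemokine (0.961), followed. Their knockout minus control differences were -0.56, -0.16, -0.47, -0.53 and -0.09 in that order, and none passed. These r values are the highest of the genes ranked, are descriptions over arrays that share their processing, and have no p. From the 10704 genes, the ranking left out the fibroblast genes and symbols built like those of unnamed transcripts. That rule also removed symbols made of C and a digit, such as C1qa.

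Gdf10, a TGF-beta family ligand in the list of further fibroblast genes, had the most negative difference of that list and is named here after its values were seen. Controls averaged 6.76 ± 0.47 and knockouts 5.27 ± 1.30 (SD, n = 5 each), a difference of -1.50 ± 0.56 (SE, adjusted p = 0.559 in limma).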
